A study of Bos taurus with 4 samples.

Results

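Interferon-stimulated genes are read here in sperm RNA of buffalo bulls of high and low fertility, through 9 genes: C7H19orf66, MX1, MX2, ISG15, IFI6, RSAD2, IRF1, IRF3 and STAT2. The members are all non-control probes that carry one of these gene names, 19 probes of the 51282 on the array, which covers 32429 gene names. C7H19orf66 was chosen on its low-fertile minus high-fertile difference on these same arrays, and the others were named beside it as genes of the same response, so the differences of all 9 are given as descriptions with no p (an SE for the 5 probes that were fitted), and 1 count of calls stands beside that of all probes.

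Cells that sense viral nucleic acid secrete interferons, and interferons bound to their receptors switch on a common set of genes through the JAK kinases and the STAT proteins. The products block viruses at different steps, and some of the same genes respond to interferon-tau, the signal of early pregnancy in ruminants. Ejaculated sperm make little or no new RNA, so the RNA they carry is largely left over from their formation in the testis or gained during transit.

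Gene expression was measured in 4 pools of Percoll-selected sperm from Murrah buffalo breeding bulls, 2 pools of high-fertile and 2 of low-fertile bulls, each pool with equal RNA of 2 bulls. High-fertile bulls had a field conception rate at least 1 SD above the mean of the bulls evaluated, and low-fertile bulls one at least 1 SD below it. The labels name no treatment, and which bulls entered which pool is not given in the sources used here, so the pool is the replicate (n = 2 a group). Buffalo RNA was hybridised, 1 dye an array, to 60-base probes designed for cattle, and the organism label of the samples reads Bos taurus. All 4 arrays lie on 1 slide with both high-fertile pools in one row of it and both low-fertile pools in the other, so the row and the group cannot be told apart. With 2 arrays a group, the smallest p of an exact permutation test is 0.333.

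Low-fertile pool 2 stood apart from the other 3 arrays: the scanner software marked 25.4% of all probes as well above background on it, against at least 45.3% on each of the others. A probe was tested when both arrays of at least 1 group had that mark, which kept 21033 probes. limma called 5632 of these at an adjusted p under 0.05, 65.6% of them lower in low-fertile bulls, and the lower share was 37.5% among probes marked on all 4 arrays and 92.1% after centring on the spike-in probes, which moved the median difference of all probes to -0.38. Of 18 sperm markers 7 were well above background on no array, among them AKAP4, SMCP and LDHC, and 7 were tested. The sperm markers summed to 27.0 and 23.3 times the array's 75th percentile in high-fertile bulls and to 26.9 and 24.8 times it in low-fertile bulls. The leukocyte markers, of which 15 of 18 were tested and CD3E, CD8A and S100A9 were on no array, summed to 755 and 774 times the array's 75th percentile in high-fertile bulls and to 886 and 976 times it in low-fertile bulls. The median difference of these markers was 0.10, with 1 called higher and 1 lower, and a sum can be carried by a few bright probes. The part of the sum of leukocyte markers in any result below was not tested. In such bulk samples, fewer cells of a type and less RNA per cell cannot be told apart.

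The sequences of the C7H19orf66 probes are shown first because the 3 probes of this one gene gave different readings. C7H19orf66, which RefSeq for ARS-UCD2.0 names SHFL, encodes a protein known as shiftless or RyDEN that blocks the programmed ribosomal frameshifting many RNA viruses rely on. In transcript order, 5′ to 3′, the probes start at bases 532, 884 and 977 of the same transcript. Capitals mark a repeat described further below, and the third probe, close to the 3′ end, is shown by its first 30 bases.

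A_73_P162817, chr7:13116804-13117005, plus strand: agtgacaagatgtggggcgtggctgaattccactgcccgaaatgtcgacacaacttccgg

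A_73_P380131, chr7:13117840-13117899, plus strand: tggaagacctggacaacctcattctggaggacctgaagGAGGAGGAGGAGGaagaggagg

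A_73_105494, chr7:13117933-13117992, plus strand, first 30 bases: ccctgccagatgcagatgcaaaccagacac

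The files place the probes on the Btau_3.1 assembly, and the exon structure was not analysed here. The first probe spans 202 bases of the genome with its 60 bases, and 33 bases separate the middle probe from the last. The middle probe holds an unbroken run of 26 purines (A or G), while the longest such run in either neighbour is 4 bases.

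C7H19orf66 gave a strong reading on the middle probe. A_73_P380131 read 173 and 94.7 units of background-subtracted processed signal in the high-fertile pools, against 1081 and 838 in the low-fertile ones. Both low-fertile pools lay far above both high-fertile pools, and the probe was well above background on all 4 arrays. Its normalized log2 signal was 1.79 ± 0.62 in high-fertile and 4.77 ± 0.13 in low-fertile pools (SD, n = 2 each), a difference of 2.98 ± 0.305 (SE from limma), and the closest pair of pools differed by 2.45. The spot was already apart before any subtraction, with a mean brightness of 229 and 156 in high-fertile and 1081 and 830 in low-fertile pools over a local background of 27 to 30 units.

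The neighbouring probes of the same transcript did not give that reading. A_73_105494 read 20.9 and 18.2 for the high-fertile and 28.9 and 18.4 for the low-fertile bulls, and was well above background in pool 1 of each group. Its difference was 0.33, and the groups overlapped. A_73_P162817 read 5.92, 15.01, 18.3 and 12.4 in the same order and was well above background on no array. Its values overlapped too, with a difference of 0.76 that rests on signals not well above background. So 1 of the 3 probes carried the difference, and the median over the 3 probes was 0.33. After spike-in centring A_73_105494 turned to -0.042, while A_73_P380131 was at 2.61.

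**Figure D1:**
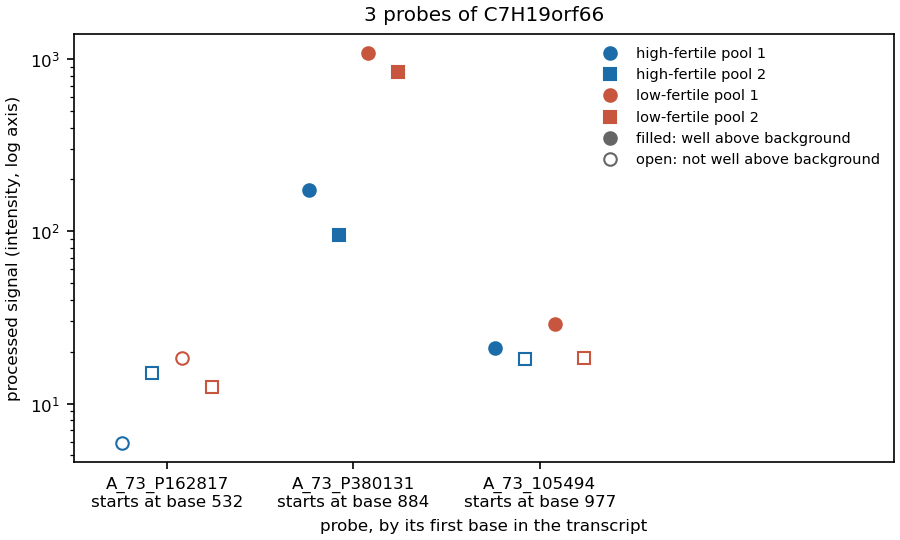
Processed signal (intensity, log axis) of the 3 C7H19orf66 probes on the 4 arrays, ordered by first base in the transcript, with high-fertile pools in blue, low-fertile pools in red, and open symbols for spots below the mark. The probe that starts at base 884 reads 94.7 and 173 in the blue pools against 838 and 1081 in the red, while the groups overlap on the probes at 532 and 977.

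The direct antiviral effectors among the members were dim, and the groups overlapped on the MX1 and MX2 probes. MX1 and MX2 encode dynamin-like GTPases that trap viral components. The MX1 probe A_73_103867 (chr1:144472044-144472103, plus strand) read 45.6 and 35.3 in high-fertile and 45.5 and 36.7 in low-fertile pools, well above background on all 4 arrays. The low-fertile values lay within the range of the high-fertile ones, and the difference was 0.11 ± 0.19 (SE). The other 2 MX1 probes were well above background on no array, at 3.12 to 13.9 units and differences of 0.29 and -0.29. The MX2 probe A_73_115858 (chr1:144423490-144423549, plus strand) read 64.4, 58.7, 63.9 and 69.6 in the same order of pools, again above background on all 4 arrays. Its groups overlapped, with a difference of 0.20 ± 0.17 (SE).

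IFI6, a small membrane protein that protects infected cells from dying and blocks flaviviruses, had the second highest difference of the tested members. Its probe A_73_P037521 (chr2:129864763-129864822, plus strand) read 25.8 and 22.2 in high-fertile and 48.2 and 28.9 in low-fertile pools. The groups did not overlap, with low-fertile pool 1 setting most of the gap, and low-fertile pool 2 was not well above background. The normalized signal was -0.62 ± 0.16 against 0.10 ± 0.39 (SD, n = 2 each), a difference of 0.72 ± 0.23 (SE) that was 0.45 without low-fertile pool 1 and 1.00 when pool 2 was left out instead. The second IFI6 probe, which maps to the opposite strand (chr2:129862866-129862925, minus strand) and comes from an expressed sequence tag, read 7.13 to 9.83, a difference of 0.20, and was well above background on no array. RSAD2, or viperin, makes a nucleotide that stops viral polymerases. Neither of its 2 probes was well above background on any array. They read 9.76 to 14.2 in high-fertile and 3.57 to 7.80 in low-fertile pools, lower in both low-fertile pools on each probe, but at signals that give no fold (log2 differences of -1.28 and -0.55).

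ISG15 is a ubiquitin-like protein that is joined to other proteins after interferon, and it is a standard marker of the interferon-tau response of the uterus and blood cells of pregnant cows. Its 2 probes overlap on the transcript and are shown because they are 2 readings of nearly the same place, with the 28 bases they share in capitals.

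A_73_P122741, chr16:48718914-48718973, minus strand: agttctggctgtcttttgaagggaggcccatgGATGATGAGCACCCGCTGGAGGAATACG

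A_73_119493, chr16:48718882-48718941, minus strand: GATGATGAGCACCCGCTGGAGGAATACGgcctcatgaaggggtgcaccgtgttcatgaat

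The upstream probe A_73_P122741 read 34.0 and 21.7 in high-fertile and 31.7 and 22.6 in low-fertile pools, and was well above background on each array except low-fertile pool 2. Its groups overlapped, with a difference of 0.06 ± 0.26 (SE). A_73_119493 read 11.6, 12.62, 18.0 and 14.6 in the same order, and low-fertile pool 1 was the one array on which it was well above background. Its groups did not overlap after normalization, with a difference of 0.51 that rests on signals of which 1 bore the mark. The 2 probes share bases and a transcript, so they are not replicates of each other.

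The signalling members were near or below the background. IRF1 and IRF3 are transcription factors that turn on interferon genes, and STAT2 is part of the complex that carries the signal of type I and type III interferon receptors to the nucleus. Both IRF1 probes were well above background on no array and read 4.50 to 19.9. High-fertile pool 1 was the highest of the 4 arrays on each of them, and their differences were -0.12 and -0.05 with overlapping groups. The IRF3 probe A_73_P033856 read 32.2 and 15.7 in high-fertile and 19.9 and 7.84 in low-fertile pools, well above background in pool 1 of each group. Its difference was -0.76 with overlapping groups. The STAT2 probe A_73_102551 read 20.1 and 21.2 in high-fertile and 18.5 and 16.3 in low-fertile pools, also marked in pool 1 of each group. Both low-fertile values were the lower ones after normalization, with a difference of -0.16. The second probes of IRF3 and STAT2 were well above background on no array. That of IRF3 went the other way, at 0.71 with groups that did not overlap, and that of STAT2 was at 0.02.

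**Figure D2:**
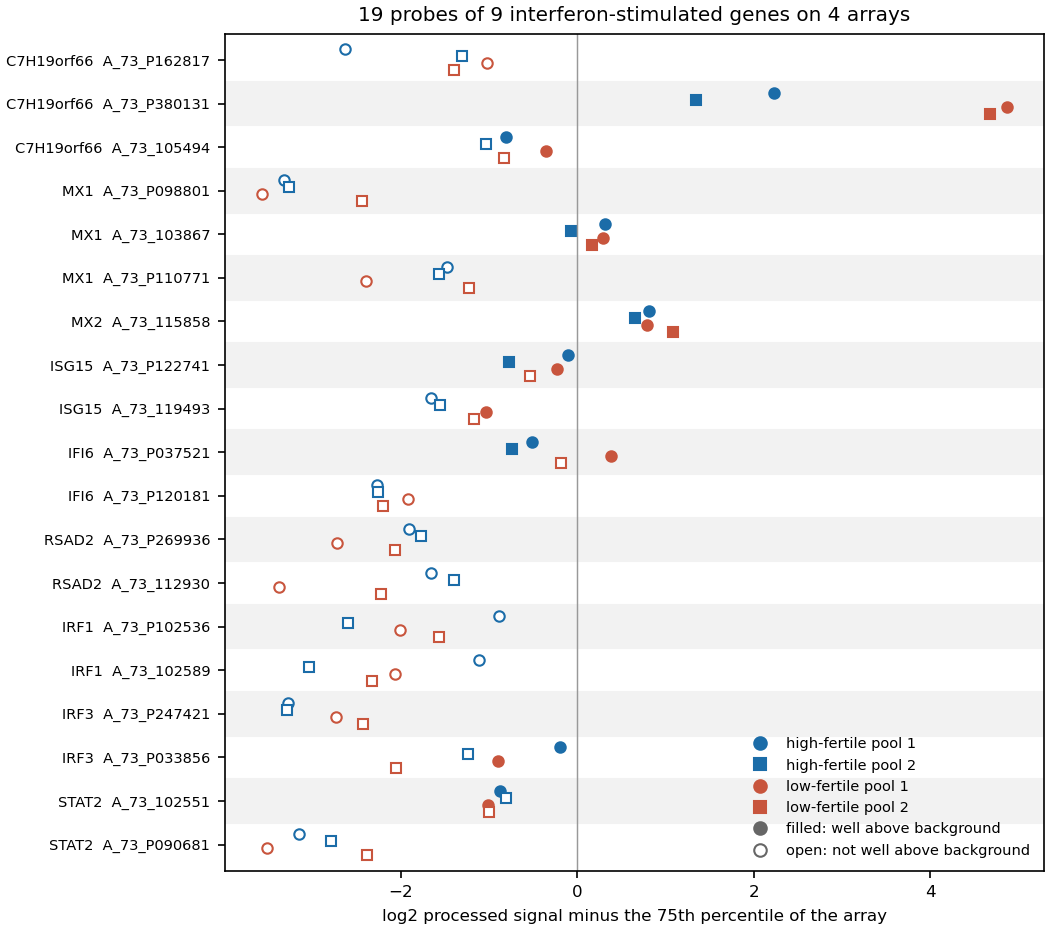
Normalized signal of all 19 member probes on the 4 arrays, as log2 processed signal minus the array's 75th percentile, with filled symbols for spots well above background. A_73_P380131 of C7H19orf66 lies at 4.68 and 4.87 in low-fertile pools (red) against 1.35 and 2.23 in high-fertile pools (blue), and the other probes lie below 1.1 on every array.

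Across the list, 10 of the 19 probes were well above background on no array, 6 on some and 3 on all 4. The 3 were A_73_P380131 and the MX1 and MX2 probes. By array the count of member probes was 8 and 5 in high-fertile and 9 and 3 in low-fertile pools. As a share of the 19 probes this was 42.1%, 26.3%, 47.4% and 15.8%, below the share among all probes on each array. IRF1 and RSAD2 were the 2 genes with no probe well above background on any array. The software's weaker mark, a signal positive and significant against the background, was set on all 4 arrays for 12 member probes.

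Of the 19 probes 5 passed the filter, 1 each of C7H19orf66, MX1, MX2, ISG15 and IFI6. Of these 5, 1 was called higher in low-fertile bulls, beside 9.22% of all tested probes called higher and 17.6% called lower, and 2 had groups that did not overlap with low-fertile higher, beside 33.6% of all tested probes. Because the contrast chose C7H19orf66, nothing is read from these counts. The 5 differences were above 0, but ISG15, MX1 and MX2 turned to -0.31, -0.26 and -0.17 after spike-in centring, where the median of all probes was -0.38. IFI6 was at 0.35 after that centring and at 0.23 under normexp background correction, and MX1 was at -0.29 by the median over its probes. Without high-fertile pool 2 the ISG15 and MX1 differences were -0.27 and -0.08, and without low-fertile pool 1 that of ISG15 was -0.09. The median of the 5 was 0.20, and that of the 4 without C7H19orf66 was 0.16 with a range of 0.06 to 0.72, beside a median of -0.005 over all tested probes. The other 14 probes had a median difference of -0.01, from -1.28 to 0.76, and none of them was well above background on both arrays of a group.

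The genes most like C7H19orf66 over the 4 arrays were found by centring each gene on its own mean and ranking the root mean square difference from the pattern of A_73_P380131, over the 10636 genes whose brightest probe was well above background on all 4 arrays. The closest named genes were MIER1 at 0.23, FRAT1 at 0.40, APBA3 at 0.40, LTB4R at 0.44 and SLA2 at 0.54 log2 units, with 6 probes known only by an identifier ranked among them. Their low-fertile minus high-fertile differences were 2.99, 2.33, 2.76, 2.28 and 2.01. MIER1 is a transcriptional corepressor, FRAT1 binds the kinase GSK3 in Wnt signalling, and LTB4R is the leukotriene B4 receptor of leukocytes. None of the 5 is in the interferon pathway list used here.

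The probes of MIER1 and FRAT1, the 2 closest of these 5, share a stretch of letters with A_73_P380131, which was noticed after the values were seen. APBA3, LTB4R and SLA2 hold neither this stretch nor the shorter one below, at differences of 2.76, 2.28 and 2.01. The probes of MIER1 and FRAT1 are shown with the stretch, the 13-letter motif GAGGAGGAGGAGG, in capitals.

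MIER1, A_73_P416341: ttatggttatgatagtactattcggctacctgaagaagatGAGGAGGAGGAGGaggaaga

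FRAT1, A_73_P060186: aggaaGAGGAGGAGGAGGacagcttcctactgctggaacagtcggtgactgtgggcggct

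No other member probe holds the motif, nor the 10 letters GAGGAGGAGG within it. In the probe sequences as written, which have the sense of the transcript, 9 of the 51282 probes hold the 13 letters (0.0176%), from 9 genes or transcripts. Of these, 8 were tested, and all 8 were higher in low-fertile bulls with groups that did not overlap, with a median difference of 2.18 and a range of 1.26 to 2.99. C7H19orf66, MIER1 and FRAT1 are among the 8 and were picked for this pattern, so the count of 8 is a description and supports nothing. The ninth, too dim to be tested, had a difference of 0.65. PELP1, a nuclear receptor coregulator with a difference of 2.89, was well above background in the low-fertile pools alone, so its probe could pass the filter only by being brighter there.

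The same genes were then read through their other probes. Of the 8 genes 5 had at least 1 other probe, 15 probes in all, with a median difference of 0.32 from -2.28 to 0.92. Of the 15, 9 were tested, with a median of 0.26, and 5 were well above background on no array. MIER1 read 47.7 and 42.8 against 63.4 and 52.4 on a probe further along its transcript, a difference of 0.44 where the motif probe gave 2.99. The other 4 PELP1 probes gave 0.26 to 0.54, the highest of these on a probe well above background on no array. TRH, the precursor of thyrotropin-releasing hormone, pointed both ways, at 1.80 on the motif probe and -2.28 on the other, which passed the filter through the high-fertile arrays alone.

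**Figure D3:**
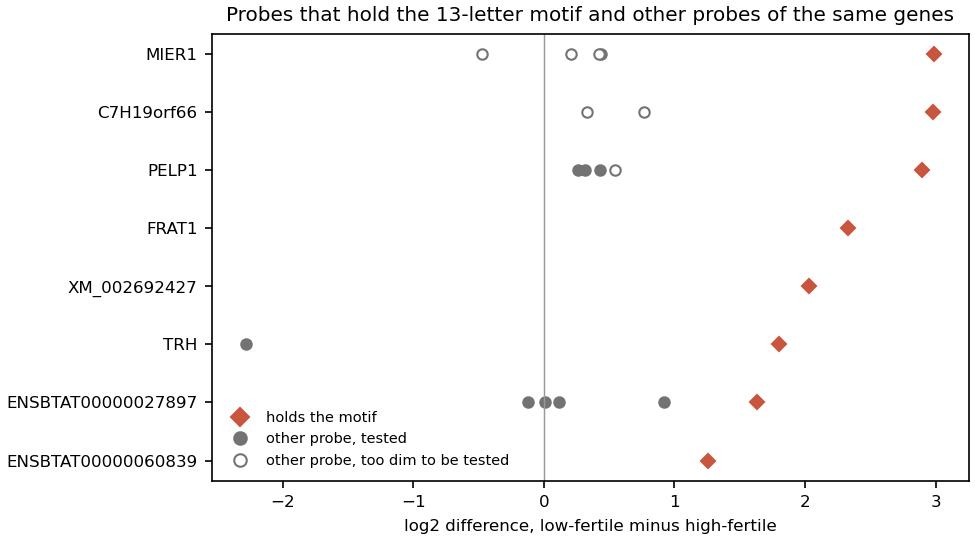
Low-fertile minus high-fertile log2 difference of the 8 tested probes that hold the 13-letter motif (red diamonds) and of the other probes of the same genes or transcripts (grey, open where too dim to be tested). The motif probes lie between 1.26 and 2.99, and the other probes between -2.28 and 0.92.

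The shorter 10-letter motif was held by 43 probes (0.0839% of the array), the 9 with the 13 letters included. The 13 tested probes with 10 but not 13 letters had a median difference of 0.45, with 5 called higher and 1 lower. The reverse complement of the longer motif, CCTCCTCCTCCTC, was on 2 probes, both tested, at -0.41 and -0.30. That of the shorter one, CCTCCTCCTC, was on 19 probes, all tested, with a median of -0.33, and limma called 4 of them lower. Of all tested probes, limma called 9.22% higher and 17.6% lower. Among tested probes with at least 55% G and C and without either forward motif, 16.7% were called higher and the median was 0.25. Over the 21033 tested probes, which share the same 4 arrays, the correlation of G and C content with the difference was 0.44. The part of the repeat and of base composition in the reading of A_73_P380131 was not tested, and a match of letters is a description of the probe.

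The rest of the interferon pathway was read to place the members, from a list of 119 symbols of ligands, receptors, sensors, factors, effectors and regulators. The array held 95 of these genes and 56 were tested, each through its brightest tested probe. limma called 8 of the 56 at an adjusted p under 0.05, 5 higher and 3 lower in low-fertile bulls, beside 9.53% of all 16685 tested genes called higher and 16.6% called lower. The 3 lower calls, GBP4, CMPK2 and IFI16, passed the filter through the high-fertile arrays alone, where they are brighter. For these 3 the filter favoured a lower call. The split was 2 higher and 17 lower after spike-in centring, and 7 higher and 9 lower under normexp background correction. The median difference was -0.04, beside 0.01 over all tested genes, and 24 genes had values above 0 and 32 below. The count was 2 without either high-fertile pool and 4 without low-fertile pool 2. GBP4, with that limit, and SOCS1 were the 2 that passed with each pool left out in turn, at adjusted p-values of 0.0043 to 0.017 and of 0.013 to 0.045, but by the median over a gene's probes they were at -0.65 (adjusted p = 0.20) and 0.21 (adjusted p = 0.38). CMPK2 and TYK2 did not pass without either high-fertile pool (0.051 to 0.068), IFI16 and IFNLR1 without either of these or low-fertile pool 2 (0.070 to 0.15), and BST2 and PML without any one pool (0.055 to 0.19). After spike-in centring BST2 was at 0.22 (adjusted p = 0.25), PML at 0.22 (adjusted p = 0.24) and IFNLR1 at 0.32 (adjusted p = 0.10). The methods' t-test with Benjamini-Hochberg adjustment called 0, with 12 at an unadjusted p under 0.05 where limma had 15.

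Among ligands, the type I interferon genes and their trophoblast relatives had 8 tested genes, of which limma called 0, with 2 at an unadjusted p under 0.05. IFNB3, a beta interferon, read 122 and 125 in high-fertile and 158 and 157 in low-fertile pools, and IFNW1, an omega interferon, read 275 and 285 against 202 and 186. Their differences were 0.43 and -0.44, with adjusted p-values of 0.08 and 0.07. The other tested IFNW1 probes ranged from -1.15 to -0.08. IFNT3, an interferon-tau gene, had a difference of -0.0038, and its other probe, too dim to be tested, gave 0.55. These families hold near-identical copies, and a probe may bind several of them.

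Of receptors and JAK kinases 2 of 4 tested genes were called, both higher. TYK2, the kinase that pairs with type I receptors, read 8359 and 8495 in high-fertile and 14265 and 13601 in low-fertile pools. The groups stood apart by 0.81 ± 0.14 (SE, adjusted p = 0.013), but its second probe, too dim to be tested, gave -0.93. The median over both turned to -0.060, and after spike-in centring the difference was 0.44 (adjusted p = 0.048). IFNLR1, the receptor chain for interferon-lambda, which the files name IL28RA, read 23.5 and 23.5 against 35.3 and 36.2, a difference of 0.69 ± 0.15 (SE, adjusted p = 0.026). Its signal was not well above background in low-fertile pool 2, and under normexp it was at 0.15 (adjusted p = 0.099).

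Of the 5 tested sensors and adaptors and the 4 tested transcription factors limma called 0, with 1 and 0 at an unadjusted p under 0.05 and differences from -0.83 in TRAF3 to 0.25 in IRF4. IRF7, which drives interferon-alpha genes, read 108 and 127 in high-fertile and 91.5 and 88.3 in low-fertile pools, and its difference of -0.30 had an adjusted p of 0.21, while its second tested probe gave -0.71. MAVS, the adaptor of RNA sensing at mitochondria, had the same difference of -0.30.

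The antiviral effectors, the class of most members, had 25 tested genes with a median of -0.06. A gene's probes could differ widely: TRIM5, a capsid-binding factor, was at -0.28 on its brightest probe and at -2.65 to -1.83 on the other 3, 2 of them tested. BST2, or tetherin, which holds budding viruses at the cell surface, rose by 0.59 ± 0.14 (SE, adjusted p = 0.035) and read 37.9 and 42.0 against 59.96 and 53.4. Its second probe, too dim to be tested, gave -0.71, the median over both turned to -0.058, and under normexp the difference was 0.31. PML, which builds the nuclear bodies of that name, rose by 0.59 ± 0.16 (SE, adjusted p = 0.045) and was at 0.33 under normexp. Both calls were lost with the replicate number as a block (adjusted p = 0.057 and 0.069), and that of PML when genes were read by the median over probes (adjusted p = 0.073). GBP4, a guanylate-binding protein, had the largest difference of the list by brightest tested probe. Its probe read 117 and 140 in high-fertile bulls and 12.1 and 14.8 in low-fertile bulls, where it was not well above background. This is at least 8.98-fold lower in low-fertile bulls (adjusted p = 0.0022), with the low-fertile level taken as measured, and the difference was -1.05 under normexp background correction. The other 2 GBP4 probes were too dim to be tested and gave -0.99 and 1.73. CMPK2, the neighbour of RSAD2 in the genome, read 31.4 and 28.9 against 13.6 and 14.9, where it was not well above background. That is 2.00-fold lower on the measured signals (adjusted p = 0.013). CMPK2 too passed the filter through the high-fertile arrays alone. Under normexp it was at -0.20 (adjusted p = 0.055). IFI16, a sensor of DNA, fell by 0.89 ± 0.22 (SE, adjusted p = 0.038), a call lost with the percentile over probes marked on all arrays (adjusted p = 0.082). Its other probe, too dim to be tested, gave 0.46, and the median over both was -0.21 (adjusted p = 0.40). IFI16 was not well above background in low-fertile pool 2, so it too passed the filter through the high-fertile arrays alone. Under normexp IFI16 was at -0.36.

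Of the 3 tested genes that attach ISG15 to proteins limma called 0, with 1 at an unadjusted p under 0.05. HERC5, the ligase, had a difference of 0.65 and UBE2L6, the conjugating enzyme, 0.47, with adjusted p-values of 0.053 and 0.13. The other UBE2L6 probe, too dim to be tested, gave -0.44, and UBA7, the activating enzyme, was at -0.016 with overlapping groups. Of the 7 tested negative regulators 1 was called. SOCS1, which switches off JAK kinases, read 211 and 205 in high-fertile and 406 and 406 in low-fertile pools, and rose by 1.05 ± 0.15 (SE, adjusted p = 0.0073). Its other 2 probes, both tested, gave 0.21 and 0.43.

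**Figure D4:**
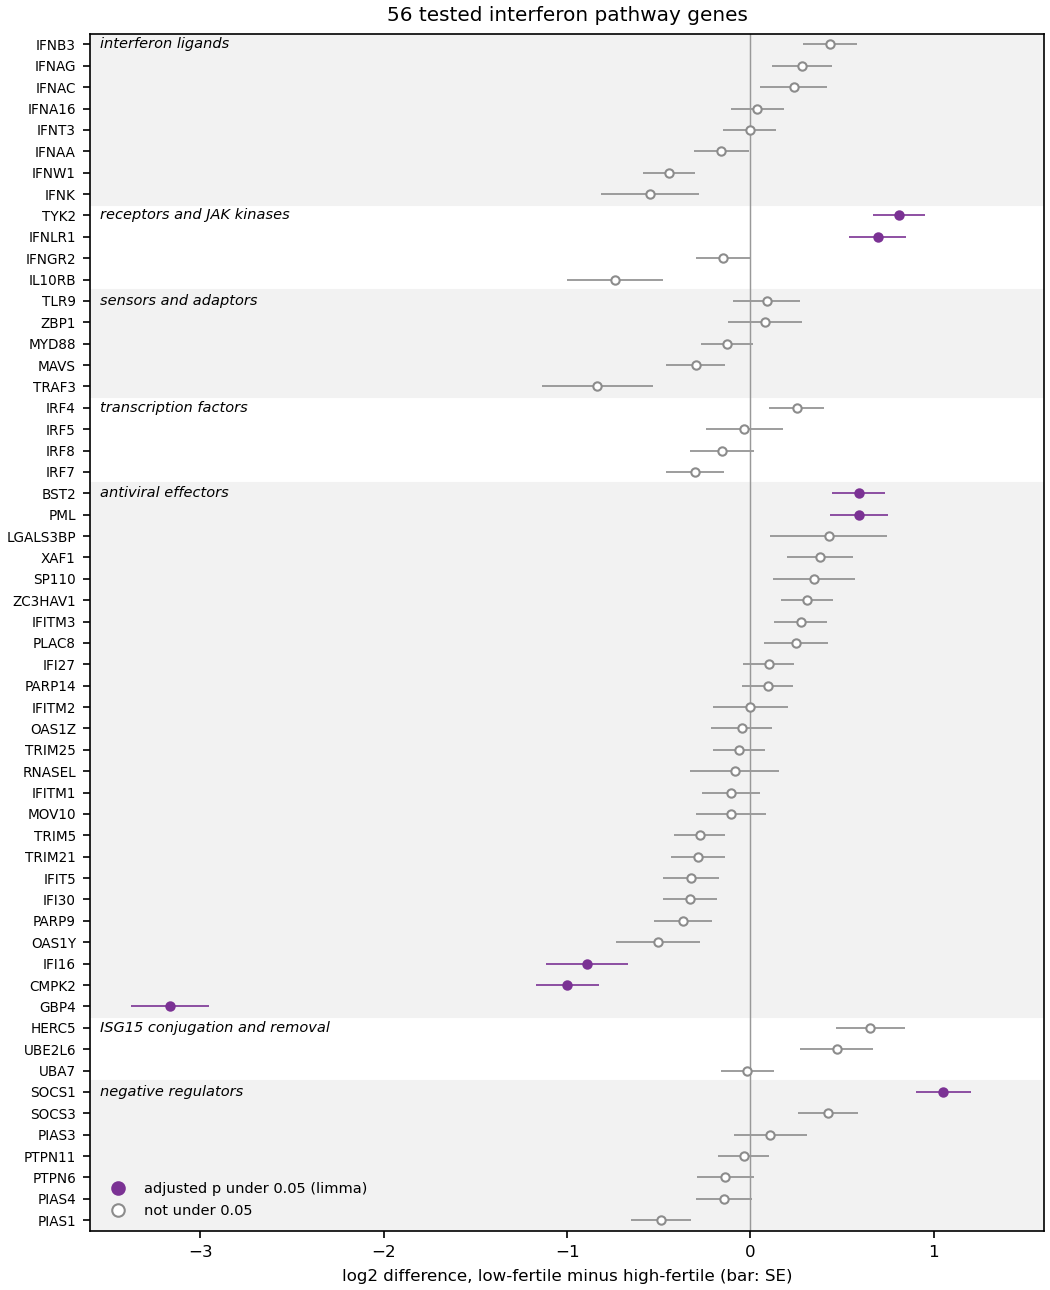
Low-fertile minus high-fertile log2 difference, with its SE from limma, for the 56 tested interferon pathway genes by role, filled where the adjusted p is under 0.05. The 8 filled genes run from GBP4 at -3.17 to SOCS1 at 1.05, and after spike-in centring all values lie lower, with a list median of -0.41.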

How the data were processed

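Sperm RNA of 4 pools, 2 high-fertile and 2 low-fertile, was hybridised to 1-colour Agilent arrays of a bovine design. The authors extracted images with Feature Extraction 11.5.1.1 and normalized in GeneSpring GX 12.6 by a 75th percentile shift. The deposited scanner output holds linear intensity values, the processed signal with background subtracted and a surrogate for spots not above it, and also the deposited marks (other: 0 or 1) for spots well above background. The same arrays were also deposited as log2 values after the shift, used as an alternative. Coordinates are those of Btau_3.1, per the file headers.

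Here spots marked as outliers were left out, log2 processed signals were averaged per probe, and the array's 75th percentile over the 51282 non-control probes was subtracted. Each member probe has 1 spot, and 7 of the 19 had a surrogate value on at least 1 array. The 21033 probes so marked on both arrays of either group entered limma (3.58.1, in R 4.3.3: lmFit and eBayes), with p-values adjusted by Benjamini-Hochberg over all of them. Tables were made with pandas 2.3.3, scipy 1.17.1 and numpy 2.4.6 in Python 3.11.15. The fit was tested on simulated data. A gene was read from its brightest tested probe. The folds of GBP4 and CMPK2 use, per low-fertile array, the higher of the lowest signal marked as well above background and the probe's own. Here this was the probe's own, so the folds are estimates and not lower bounds.

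The members and lists were chosen with earlier results of these data known. Every member probe is reported, and of the pathway list the genes past the threshold and those that show a set are named. The pathway list holds the older and the current symbol of IFNLR1. Of 36061 probes with a RefSeq accession 28112 matched a current symbol, and 2 listed symbols were found through it. The number of arrays, 4, limits the precision. The p-values rest on the spread between these pools alone, which limma pulls for each probe towards that of all tested probes.

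Alternatives were another percentile base, quantile and spike-in normalization (7 probes), normexp background correction (offset 50), no filter, probes marked on all arrays, outlier spots kept, spots in bright patches left out (at least 2 of 6 adjacent spots over 2 log2 units away), the deposited table, a replicate block, the methods' t-test, the median over a gene's probes, and each pool left out. Replicate numbers did not pair the pools: the correlation of pool 1 minus pool 2 between the groups was 0.0055 over 21024 probes.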

Additional observations from a re-analysis of the deposited data

How the results depend on the processing

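The count of member probes with low-fertile higher, 5 of 5, was 12 of 19 with no filter, 3 of 3 among probes marked on all arrays, 2 after spike-in centring, and 3 to 5 with each pool left out. The median of the member genes, 0.20, was -0.17 after spike-in centring, 0.064 with no filter, 0.12 under normexp and 0.13 to 0.40 with each pool left out. C7H19orf66, read from its chosen probe or the median over its 3, was above 0 in each of 15 alternatives, from 0.33 as the median over its probes to 3.42 without high-fertile pool 1. The member probes above background on all arrays were 3, and the weaker mark gave 12. The count of 5632 called probes was 0 with no filter (9278 at an unadjusted p under 0.05), 0 by the methods' t-test (6084 unadjusted) and 2640 to 4989 with each pool left out. The pathway count of 8 was 3 by the median over probes, 0 by the methods' t-test, 0 with no filter (8 unadjusted), 16 under normexp, 19 after spike-in centring and 2 to 9 with each pool left out. The pathway median of -0.04 was -0.0012 with the percentile over probes marked on all arrays, -0.053 in the deposited table, -0.00097 by the median over probes, -0.00018 with no filter, 0.00010 under normexp, 0.099 among probes marked on all arrays, -0.016 under quantile normalization, -0.41 after spike-in centring and -0.057 to 0.026 with each pool left out. By the median over a gene's probes BST2 turned to -0.058 and TYK2 to -0.060. With the replicate block 5331 probes and 7 pathway genes passed, and BST2 (adjusted p = 0.057) and PML (0.069) did not. The replicate numbers share no more than a number. The cause of these shifts was not tested. With 2 pools a group, signals near the background limit what can be read from 14 of the 19 member probes, and none of the 5 tested member genes has a second tested probe.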
